A study of Homo sapiens with 20 samples.

Results

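The genes described here are 52 antiviral interferon-stimulated genes, given as a list and found by symbol among the 35168 genes of the deposited table. All 52 were present. They fall by role into 9 groups: the RNA-binding IFIT proteins (IFIT1, IFIT2, IFIT3 and IFIT5), the OAS enzymes with other proteins that act on double-stranded RNA (OAS1, OAS2, OAS3, OASL, EIF2AK2, IFIH1, DHX58, DDX60, DDX60L, ADAR and PNPT1), the GTPases MX1 and MX2, the ISG15 system (ISG15, HERC5, HERC6 and USP18), proteins of membranes, virus budding and nucleotide pools (IFITM1, IFITM2, IFITM3, BST2, RSAD2, CMPK2, LAMP3, PLSCR1 and RTP4), the PARP group (PARP9, PARP10, PARP12, PARP14 and DTX3L), the TRIM proteins (TRIM5, TRIM21, TRIM22 and TRIM25), proteins of nuclear bodies and nucleases (ISG20, HELZ2, SP100 and SP110), and the remaining IFI and SAMD9 genes (IFI6, IFI27, IFI35, IFI44, IFI44L, EPSTI1, SAMD9, SAMD9L and XAF1).

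RNA was sequenced from 5 established human cell lines, 3 of acute myeloid leukemia (AML), Kasumi-1, NOMO-1 and THP-1, and 2 endothelial lines, iHUVEC and TIME. Each line contributed 1 untreated library and 1 library after 24 h with interferon gamma (IFNg), with tumor necrosis factor alpha (TNFa) or with both, each cytokine at 10 ng/ml, which makes 20 libraries. No group carried a genetic change that the labels name. The line is the replicate, so each AML group held 3 libraries and each endothelial group 2, and no library was repeated within a line. Values are TPM, a share of transcripts corrected for their length and scaled to a fixed total, so the sequencing depth is unknown.

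As background, interferons are secreted proteins that cells release on infection. Type I interferons (interferon alpha and beta) and type III interferons (interferon lambda) signal through JAK kinases to ISGF3, a complex of transcription factors that binds a DNA element called the ISRE in front of antiviral genes. IFNg, the type II interferon, signals through a different receptor to factors that bind the GAS element, and induces the factor IRF1, which also binds ISRE-like sites. TNFa signals through NF-kB, whose sites are called kB sites, and is classically known for inflammatory rather than antiviral genes.

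The libraries carried the markers of their labels. All 8 of the endothelial markers examined, CDH5 among them, reached 1 TPM in every endothelial library, and 1 or 2 of the 8 did so in any AML library. Of 8 AML and myeloid markers, 6 to 8 reached 1 TPM in the AML libraries and 0 to 2 in the endothelial ones. Known target genes of each cytokine also responded. All 10 IFNg control genes rose with IFNg, and 9 of 10 TNFa control genes rose with TNFa, in the fit of all lines described below. Over all genes 0.771% and 0.146% rose. The lists were chosen with earlier results of these data known, so their response is a description and no independent check. NOMO-1 stood apart, with 73.2 to 82.1% of its listed TPM in mitochondrial genes against 11.9 to 24.8% elsewhere, so its nuclear genes have low TPM.

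The DNA in front of these genes is shown first, since the elements named above differ between them. RefSeq promoter windows on GRCh38.p14 matched 42 of the 52 members by symbol, and the 250 bases before the start were searched. The ISRE letters, GAAA, any 2 bases and GAAA, searched on both strands, stood in 27 of the 42 (64.3%), against 3.71% of the 27305 genes with an entry. The GAS letters TTCNNNGAA stood in 11 members (26.2%) and in 8.09% of all genes. The kB letters, GGGA, any base and TTTCC, stood in 2 members, IFIH1 and OAS3 (4.76%), and in 0.645% of all genes. The sites below are 30-base windows before the RefSeq start, on the strand of each gene and outside annotated exons. ISRE letters are in capitals for 8 members whose expression is described below.
IFIT1, chr10:89392497-89392526, plus strand: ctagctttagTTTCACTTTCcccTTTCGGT
IFIT3, chr10:89327831-89327860, plus strand: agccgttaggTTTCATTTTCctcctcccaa
ISG15, chr1:1013374-1013403, plus strand: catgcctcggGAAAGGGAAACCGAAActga
RSAD2, chr2:6877622-6877651, plus strand: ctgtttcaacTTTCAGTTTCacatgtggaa
IFI27, chr14:94110618-94110647, plus strand: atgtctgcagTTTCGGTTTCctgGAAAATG
EPSTI1, chr13:42992272-42992301, minus strand: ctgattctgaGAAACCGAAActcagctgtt
IFI6, chr1:27672329-27672358, minus strand: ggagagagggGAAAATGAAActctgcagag
OAS3, chr12:112938321-112938350, plus strand: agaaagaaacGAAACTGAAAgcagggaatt
By GENCODE v29 the genes ISG15, RSAD2 and IFI27 begin further upstream, so their windows lie inside the annotated gene, outside its exons. In ISG15 the matches overlap. In IFIT1, IFIT3, RSAD2 and IFI27 the element reads from the opposite strand, as TTTC, any 2 bases and TTTC, and the capitals at the right end of IFIT1 and IFI27 open a further match that runs past the window. A match of letters is a description of the sequence and does not show binding.

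With both cytokines nearly the whole list was higher, in 4 of the 5 lines by a wide margin. The summed TPM of the 52 genes was 1302 in untreated Kasumi-1 and 54234 with both cytokines, 802 and 12326 in THP-1, 2823 and 31652 in iHUVEC and 2729 and 27255 in TIME. In NOMO-1 the sums were 324 and 816. With both cytokines the 52 genes held 5.69% of all listed TPM in Kasumi-1 and 0.0821% in NOMO-1, and 6.58% and 0.458% of the TPM outside mitochondrial genes. By at least 1 log2, 51 of the 52 were higher in Kasumi-1, 26 in NOMO-1, 52 in THP-1, 51 in iHUVEC and 50 in TIME, against 17.8%, 3.95%, 7.92%, 6.09% and 7.45% of all genes tested. With mitochondrial genes removed NOMO-1 had 36 members higher by that size, and its median change was 1.95 in place of 1.02. The sum is higher with both cytokines in every line. On the deposited scale the treated NOMO-1 library lies below untreated Kasumi-1, iHUVEC and TIME, whereas its 0.458% of non-mitochondrial TPM lies above all 5 untreated libraries (0.109 to 0.343%). In bulk RNA, fewer cells with a transcript and less of it per cell cannot be told apart.

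**Figure D1:**
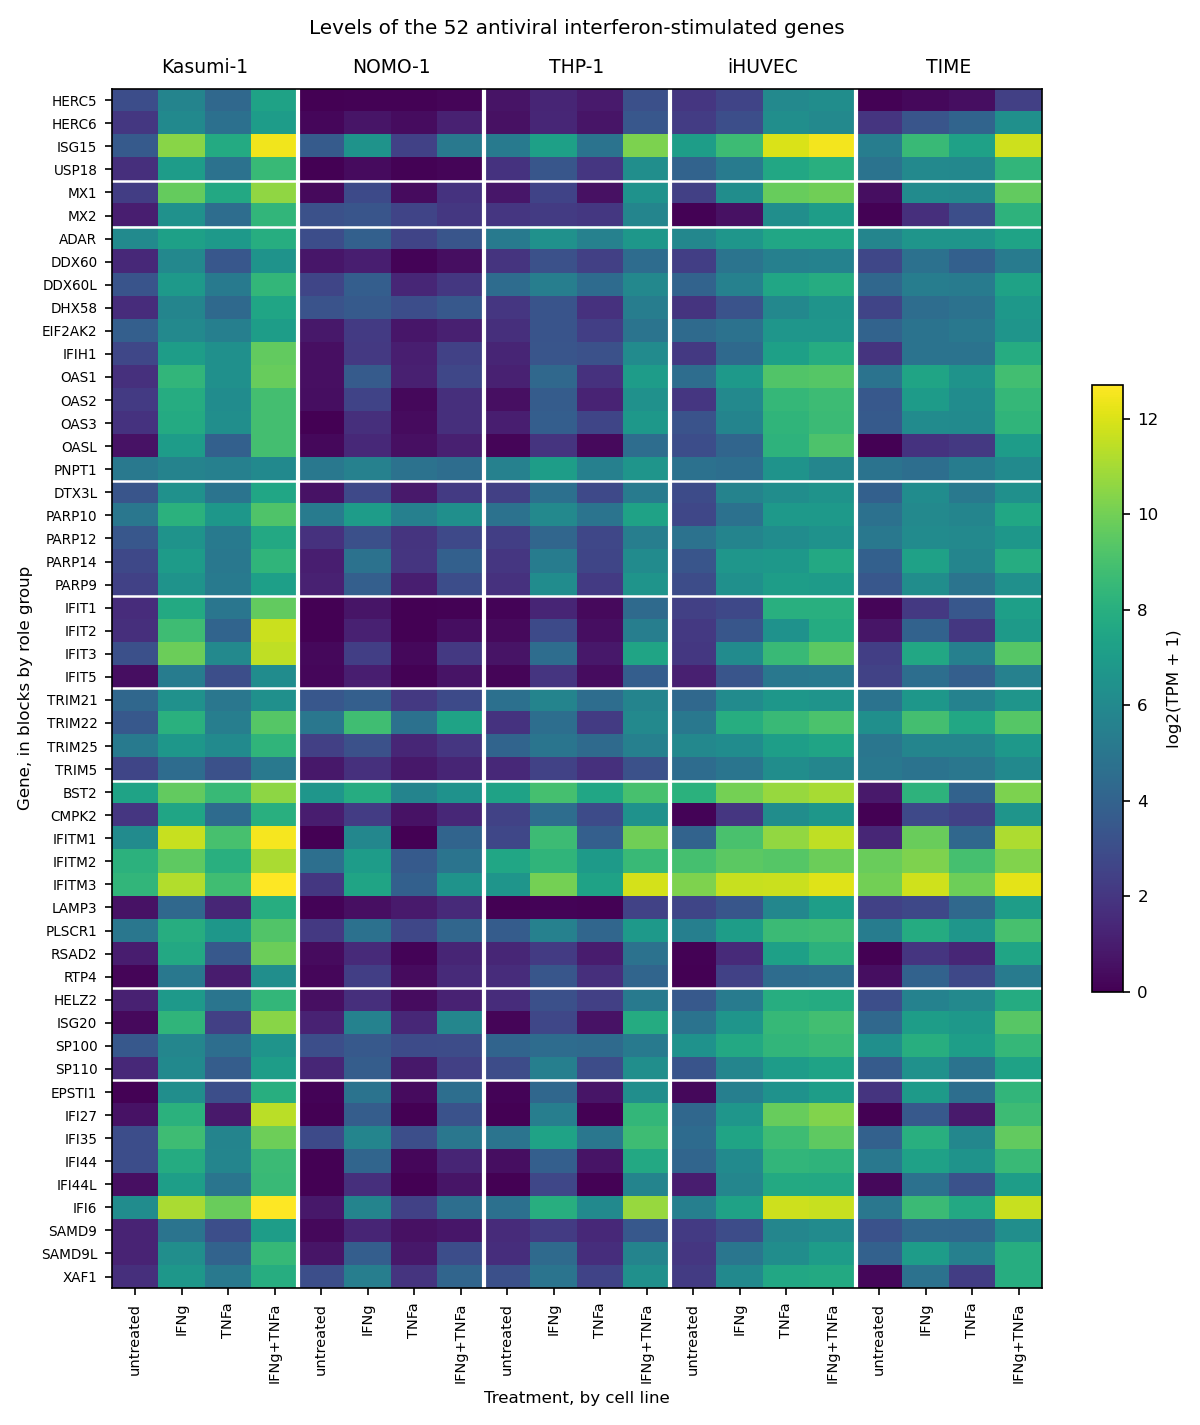
Level of each of the 52 genes (rows, in blocks by role group) in each of the 20 libraries (columns, in blocks by line), as log2(TPM + 1), with brighter colours for higher levels. The right-hand column of each line, with both cytokines, is the brightest in Kasumi-1, THP-1 and TIME, the TNFa column of iHUVEC is close to it, and the NOMO-1 block is mostly dark.

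Tests were run on log2(TPM + 1) with limma over all genes with at least 1 TPM in at least 2 libraries, with calls made where the adjusted p was below 0.05. Changes are log2 differences ± the moderated standard error. In fits with a term for the line, p-values measure how far the changes with treatment vary between lines. The fit within cell types shares 1 spread per gene over both types. In the comparison of untreated levels they measure the spread of levels between lines of a type. Comparisons against untreated cells share the untreated libraries. In the fit of all 5 lines with a term for the line, 51 of the 52 members rose with both cytokines, where 8.62% of all 15043 genes tested did and 27.2% fell. The median change was 3.97 for the members and -0.23 for all genes. Scaling the libraries by the median of ratios moves the all-gene median to -0.02 and calls 52 members. Leaving out each line in turn, 48 of the 51 calls were kept in all 5 fits. IFITM2 lost its call when Kasumi-1 (adjusted p = 0.203), THP-1 (0.102), iHUVEC (0.0676) or TIME (0.0721) was left out, and TRIM21 lost it without Kasumi-1 (0.0718) or TIME (0.0709). TRIM25 lost it without Kasumi-1, which left 48 calls. Without a term for the line, 9 of the 52 were called. For such refits, here and below, the share of all genes called is not given, so a shift need not be particular to the members.

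The IFIT proteins act against viral RNA, some by binding its ends and blocking its translation, and all 4 rose. Given in the order untreated, IFNg, TNFa and both cytokines, IFIT3 stood at 7.7, 917, 62.6 and 2921 TPM in Kasumi-1, 0.205, 4.15, 0.211 and 3.37 TPM in NOMO-1, and 0.564, 22.4, 0.741 and 168 TPM in THP-1. The endothelial cells held it at 3.24, 70, 385 and 731 TPM in iHUVEC and 4.06, 198, 45.3 and 648 TPM in TIME. Within each AML line TNFa alone left IFIT3 below its IFNg level, whereas in iHUVEC the TNFa library was the higher one. The IFIT3 change with both cytokines was 6.29 ± 0.89 (adjusted p = 0.000174), and treated and untreated levels did not overlap among the endothelial lines but did among the AML lines. The median over the 4 genes was 5.23.

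Among the genes that act on double-stranded RNA, 10 of 11 rose, with a median of 3.66. OAS1, OAS2 and OAS3 make the short oligoadenylates that switch on RNase L, EIF2AK2 (PKR) stops translation, IFIH1 (MDA5), DHX58 and DDX60 take part in sensing viral RNA, and ADAR edits adenosines in double-stranded RNA. OASL, a related protein without that enzyme activity in humans, changed most in this group, by 5.33 ± 0.95 (adjusted p = 0.000755). It stood at 0.55, 129, 14.1 and 476 TPM in Kasumi-1, 0.229, 1.79, 0.424 and 1.17 TPM in NOMO-1, and 0.109, 2.74, 0.261 and 22.4 TPM in THP-1. Endothelial levels were 6.93, 16.5, 301 and 579 TPM in iHUVEC and 0.0295, 2.68, 3.35 and 130.4 TPM in TIME. OASL was under 1 TPM in 4 of the 5 untreated lines, iHUVEC being the exception, and it passed 1 TPM in every library with both cytokines.

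PNPT1, an RNA-degrading enzyme of mitochondria, was the 1 member called in no comparison. Its levels were 34.6, 49.7, 44.9 and 63.8 TPM in Kasumi-1, 32.4, 47.6, 27.1 and 22.4 TPM in NOMO-1, and 47, 135, 44.6 and 98.6 TPM in THP-1. Endothelial values were 26.1, 23.1, 91.2 and 55.9 TPM in iHUVEC and 27.5, 23.2, 39.8 and 67.1 TPM in TIME. PNPT1 was well expressed everywhere and its change with both cytokines was 0.75 ± 0.38 (adjusted p = 0.13). Under scaling by the median of ratios that change was 1.08 and was called (adjusted p = 0.0257).

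MX1 and MX2 are dynamin-like GTPases that trap viral nucleocapsids or capsids, and both rose. The levels of MX1 were 3.9, 829.7, 201 and 1523 TPM in Kasumi-1, 0.234, 6.28, 0.291 and 2.65 TPM in NOMO-1, and 0.707, 4.86, 0.477 and 87.5 TPM in THP-1. For the endothelial pair it was at 4.36, 72.9, 847 and 981 TPM in iHUVEC and 0.405, 68.9, 61.4 and 817 TPM in TIME. MX1 rose by 6.45 ± 1.04 (adjusted p = 0.000367), and the endothelial libraries with TNFa or both lay above the untreated ones without overlap.

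ISG15 is a ubiquitin-like protein, HERC5 the main ligase that attaches it in human cells, HERC6 a relative of HERC5, and USP18 the protease that removes it. All 4 rose with both cytokines, with a median of 3.59. ISG15 itself was measured at 11.3, 1372, 219 and 5468 TPM in Kasumi-1, 11.5, 92.7, 4.4 and 33.7 TPM in NOMO-1, and 36.9, 149, 27.7 and 1167 TPM in THP-1. Endothelial cells showed it at 131, 419.7, 3984 and 5661 TPM in iHUVEC and 41.4, 389, 155 and 3449 TPM in TIME. Its change was 5.40 ± 0.94 (adjusted p = 0.000627). HERC5 stood at 6.97, 52.6, 18.3 and 159 TPM in Kasumi-1, 0, 0.0536, 0.0481 and 0.128 TPM in NOMO-1, and 0.616, 1.46, 0.895 and 7.61 TPM in THP-1. Among endothelial libraries it was at 3.07, 5.07, 61.1 and 72.9 TPM in iHUVEC and 0.0561, 0.189, 0.401 and 4.28 TPM in TIME. HERC5 was high in Kasumi-1 and, with TNFa, in iHUVEC, stayed under 1 TPM in NOMO-1, and rose by 2.68 ± 0.59 with both cytokines (adjusted p = 0.00275).

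Of the membrane, budding and nucleotide genes, all 9 rose, with a median of 3.89. IFITM1, IFITM2 and IFITM3 hinder the fusion of viruses with cell membranes, BST2 (tetherin) holds budding virions at the surface, RSAD2 (viperin) makes a chain-terminating nucleotide, and CMPK2, a nucleotide kinase, is its neighbour in the genome. IFITM1 changed most. Its levels were 68.2, 3235, 522 and 5963 TPM in Kasumi-1, 0, 57.8, 0 and 15.9 TPM in NOMO-1, and 5.48, 412, 13.3 and 985 TPM in THP-1. The endothelial cells held it at 15.2, 536, 1581 and 2847 TPM in iHUVEC and 1.61, 879, 17.9 and 2294 TPM in TIME. IFITM1 rose by 7.0 ± 0.87 (adjusted p = 7.74e-05) and was listed at 0 in NOMO-1 without IFNg. IFITM2 lay at the other end: it was already at 494 and 901 TPM in untreated iHUVEC and TIME, and its change was 1.13 ± 0.41 (adjusted p = 0.0415). IFITM1, IFITM2 and IFITM3 are neighbours of related sequence on chromosome 11, so the split of reads between them is uncertain.

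All 5 genes of the PARP group rose, with a median of 2.96. PARP14 is a mono-ADP-ribosyltransferase with roles in cytokine signalling and antiviral defence, and PARP9 and DTX3L form a complex. PARP14 was measured at 5.86, 125, 32.9 and 322 TPM in Kasumi-1, 1.1, 27, 2.89 and 13.8 TPM in NOMO-1, and 3.07, 40, 5.37 and 68.7 TPM in THP-1. Endothelial levels were 9.14, 99.7, 109.7 and 202 TPM in iHUVEC and 13.9, 152, 53.1 and 233 TPM in TIME. PARP14 rose by 4.15 ± 0.39 (adjusted p = 1.07e-05), the smallest adjusted p of the 52 members in this comparison. The annotated bodies of PARP9 and DTX3L, on opposite strands of chromosome 3, overlap by 340 bases, and the sources used here do not say whether quantification used the strand. Other members overlap by annotation too. IFITM1 lies inside IFITM2 on the same strand, TRIM22 inside TRIM5 on opposite strands, and RSAD2 overlaps CMPK2 on opposite strands.

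The TRIM proteins, which restrict viruses as ubiquitin ligases, all 4 rose, with a median of 1.43. TRIM22 changed most, by 3.86 ± 0.54 (adjusted p = 0.000172). Its levels were 10.3, 267, 42.3 and 653 TPM in Kasumi-1, 31.4, 442, 26.2 and 162 TPM in NOMO-1, and 2.63, 22.7, 3.65 and 61 TPM in THP-1. Endothelial values were 33, 238, 396 and 543 TPM in iHUVEC and 80, 473, 195 and 657 TPM in TIME. TRIM22 was the member of highest level in NOMO-1 with IFNg, and its NOMO-1 level was lower with both cytokines than with IFNg alone.

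ISG20, an exonuclease that degrades viral RNA, led the nuclear group, in which all 4 rose with a median of 3.82. ISG20 stood at 0.26, 317, 4.21 and 1390.0 TPM in Kasumi-1, 1.29, 48.7, 1.7 and 55.5 TPM in NOMO-1, and 0.122, 5.43, 0.53 and 226 TPM in THP-1. For the endothelial pair it was at 27.2, 97.7, 368 and 470.4 TPM in iHUVEC and 18.8, 132, 108 and 672 TPM in TIME. ISG20 rose by 6.31 ± 0.98 (adjusted p = 0.000301), and every library with both cytokines lay above all 5 untreated ones. The speckled proteins SP100 and SP110 and the helicase HELZ2 changed by 1.67, 3.55 and 4.10.

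All 9 of the remaining IFI and SAMD9 genes rose, with a median of 4.76. IFI27, a small membrane protein of mitochondria and nuclear envelope, had the largest change of the 52, 7.43 ± 1.17 (adjusted p = 0.00034). It was measured at 0.551, 274, 0.852 and 2662 TPM in Kasumi-1, 0, 12.5, 0 and 8.31 TPM in NOMO-1, and 0, 42.7, 0 and 338 TPM in THP-1. Endothelial cells showed it at 18, 102, 849 and 1263 TPM in iHUVEC and 0, 10.8, 0.888 and 421 TPM in TIME. IFI27 was listed at 0 in untreated NOMO-1, THP-1 and TIME, so no fold is given there. IFI6, a relative of IFI27, rose by 5.82 ± 0.78, and EPSTI1, named for epithelial-stromal interaction, by 6.36 ± 0.66 (adjusted p = 0.000114 and 2.16e-05).

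IFNg alone raised fewer of these genes past the test, although the direction was the same. In the fit of all lines 18 of 52 rose, where 0.771% of all genes did and 0.0199% fell, and the change was above 0 in all 52. The median was 2.58 for the members and -0.05 for all genes. The called genes were PARP14, EPSTI1, IFITM1, DTX3L, PARP9, TRIM22, IFI35, PLSCR1, SAMD9L, IFITM3, SP110, IFIT3, OAS2, IFI6, OAS1, OAS3, IFI44L and IFIH1. PARP14 changed by 3.59 ± 0.39 (adjusted p = 0.000144), EPSTI1 by 5.07 ± 0.66 (0.000669) and IFITM1 by 6.17 ± 0.87 (0.00129). These genes and DTX3L were the 4 that kept their call when any 1 line was left out. The count was 4 without Kasumi-1, 7 without THP-1 and 5 without TIME. Without the line term it was 1. How the share of all genes called moved in these fits is not given. The ISG15 system and the MX genes had no member called with IFNg, and 3 of the 5 PARP genes did. These counts do not rank the groups by size. MX1 changed by 4.23 ± 1.04 (adjusted p = 0.0893), more than PARP14, and MX2 by 1.58. ISG15 changed by 3.31 ± 0.94 (adjusted p = 0.179), and USP18, HERC6 and HERC5 by 1.93, 1.49 and 0.84.

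Seen line by line, the number of members higher with IFNg by at least 1 log2 was 51 of 52 in Kasumi-1, 37 in NOMO-1, 42 in THP-1, 39 in iHUVEC and 44 in TIME. Over all genes tested, 4.68%, 6.93%, 3.04%, 2.64% and 3.04% passed that size in the same lines. Each line has 1 library per treatment, so these are sizes without a test. The median member change was 4.70 in Kasumi-1 and between 1.64 and 2.35 in the other 4 lines. The largest change was that of ISG20 in Kasumi-1 (7.98), of EPSTI1 in iHUVEC (5.19), and of IFITM1 in NOMO-1 (5.88), THP-1 (5.99) and TIME (8.40).

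**Figure D2:**
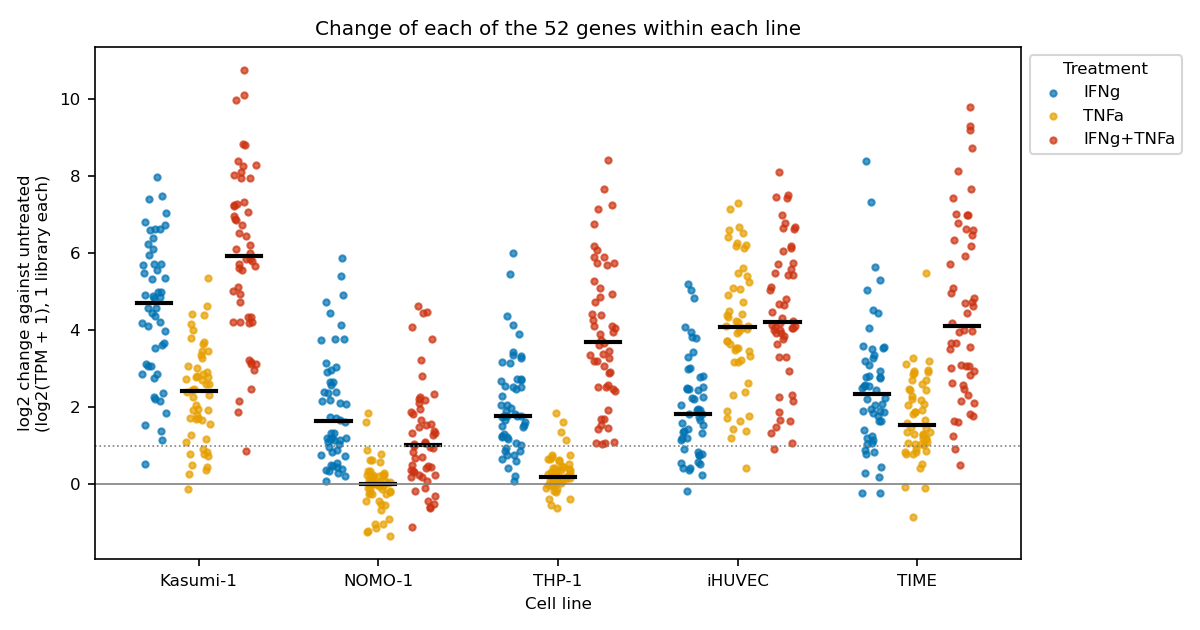
Change of each of the 52 genes against the untreated library of the same line, in log2(TPM + 1), with 1 point per gene, a black bar at the median, a solid line at 0 and a dotted line at 1. With TNFa the medians are 4.07 in iHUVEC, 2.41 in Kasumi-1, 1.53 in TIME, 0.19 in THP-1 and 0 in NOMO-1.

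TNFa alone divided the lines. By at least 1 log2, 51 of 52 members were higher in iHUVEC, 42 in Kasumi-1 and 41 in TIME, against 4 in THP-1 and 2 in NOMO-1. Over all genes the shares were 4.7%, 3.64%, 3.3%, 3.19% and 2.66%. In NOMO-1 6 members were lower by at least 1 log2, and once mitochondrial genes were taken out 8 stood higher and 6 lower. The summed TPM of the 52 with TNFa was 24263 in iHUVEC, 4528 in Kasumi-1, 3850.5 in TIME, 915 in THP-1 and 250.2 in NOMO-1, against the untreated sums of 2823, 1302, 2729, 802 and 324.

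No member passed the test with TNFa in the fit of all lines, in which 0.146% of all genes rose. By limma 34 of the 52 had an unadjusted p under 0.05, as did 1136 of all 15043 genes tested. Of the member changes 51 were above 0, and the median was 1.68 for the members and -0.05 for all genes. The smallest adjusted p was that of IFIH1 (2.82 ± 0.58, adjusted p = 0.0965), followed by PARP14 (1.83 ± 0.39, adjusted p = 0.112). Under scaling by the median of ratios, or with mitochondrial genes removed, 2 members were called, IFIH1 (adjusted p = 0.0168 and 0.0176) and PARP14 (0.0192 and 0.0284). Without NOMO-1, IFIH1 was called (3.38, adjusted p = 0.0181). Within the AML lines 0 of 52 were called, where 0.0864% of all genes rose. There 4 members had an unadjusted p under 0.05 by limma, a similar share to the 1044 of all 15043 genes.

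In the endothelial lines 2 members rose with TNFa, EPSTI1 and PARP14, where 0.784% of all genes did and 0.239% fell. The median of the 52 was 2.88, and -0.03 for all genes. EPSTI1 was measured at 0.0364, 77.6, 7.31 and 253 TPM in Kasumi-1, 0.0928, 27.9, 0.298 and 22.7 TPM in NOMO-1, and 0.0733, 18, 0.625 and 76.6 TPM in THP-1. Among endothelial libraries it was at 0.217, 43.3, 89.2 and 133 TPM in iHUVEC and 2.73, 121, 23.5 and 329 TPM in TIME. In both endothelial lines the TNFa library lay above both untreated ones, and the AML levels with TNFa were below 1 TPM except in Kasumi-1. The endothelial change of EPSTI1 was 4.46 ± 0.84 (adjusted p = 0.0223) and that of PARP14, whose levels are given above, was 2.66 ± 0.55 (0.038). Neither kept its call without THP-1 (0.104 and 0.139) or iHUVEC (0.915 and 1), where TIME is the only endothelial line left and is taken to vary as the other lines do, and PARP14 lost it without TIME too (0.156). Leaving out Kasumi-1 gave 9 calls, NOMO-1 4 and THP-1 0, and the shares of all genes called in these fits are not given. MX1 (6.39 ± 1.42, adjusted p = 0.0552) and IFIH1 (4.0 ± 0.88, adjusted p = 0.0524) lay just outside the threshold, and were called without Kasumi-1 (0.0211 and 0.0243).

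Response to TNFa alone also differed from gene to gene. IFI6, which opposes cell death and virus replication at internal membranes, was the 1 member higher by at least 1 log2 in all 5 lines. Its levels were 71.4, 2177, 902 and 6629 TPM in Kasumi-1, 0.773, 52.1, 4.41 and 23.1 TPM in NOMO-1, and 24.7, 245, 64.9 and 1743 TPM in THP-1. The endothelial cells held it at 44.1, 158, 3448 and 3143 TPM in iHUVEC and 32.2, 399, 201 and 3230.2 TPM in TIME. IFIH1, OAS3 and IFITM1 passed that size in 4 lines, 35 members in 3 lines, 6 in 2 lines and 6 in 1 line. IFIH1 and OAS3, like IFI6, and like IFITM2 above, were singled out after their values were seen. IFIH1 stood at 5.53, 134, 83.2 and 810.4 TPM in Kasumi-1, 0.435, 3.35, 1.12 and 4.57 TPM in NOMO-1, and 1.45, 9.09, 7.77 and 69.7 TPM in THP-1. Endothelial levels were 3.38, 19.4, 147 and 231 TPM in iHUVEC and 2.78, 27.9, 27.5 and 229.8 TPM in TIME. IFIH1 was higher with TNFa than without treatment in each of the 5 lines, and in NOMO-1 by less than 1 log2. OAS3 was at 0.021 TPM in untreated NOMO-1 and 0.285 TPM with TNFa, and in THP-1 at 1.08 and 5.34 TPM. IFIH1 and OAS3 have kB letters in their windows, and IFI6, IFITM1 and MX1, whose mean TNFa change of 3.60 was the largest, do not. IFITM2 passed 1 log2 in no line.

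**Figure D3:**
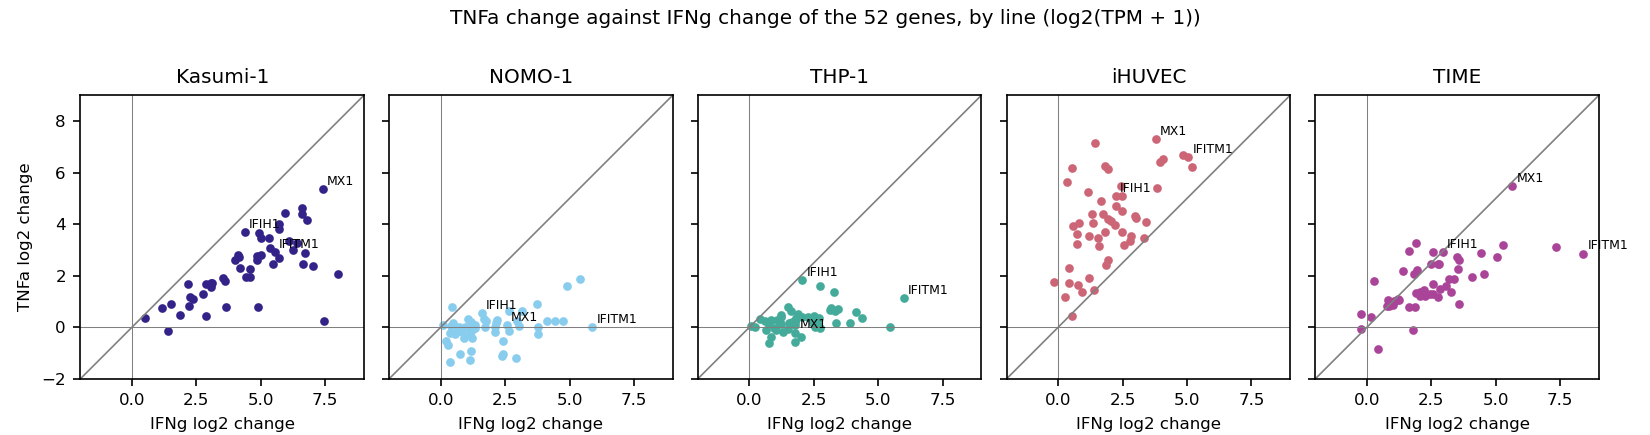
For each line, the TNFa change of each of the 52 genes (vertical axis) against its IFNg change (horizontal axis), both in log2(TPM + 1) against the shared untreated library, with the diagonal marking equal changes. Points lie under the diagonal in Kasumi-1 and THP-1, above it for 51 of 52 genes in iHUVEC, and on both sides in TIME.

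The order of the single cytokines was reversed in 1 line. TNFa gave the higher level for 51 of 52 members in iHUVEC, IFITM2 being the exception, and for 12 in TIME, 1 in NOMO-1 and 0 in Kasumi-1 and THP-1. By at least 1 log2, TNFa was the higher for 39 members in iHUVEC and 3 in TIME, where 4.11% of all genes in either line passed that size. The median of TNFa minus IFNg was 1.93 in iHUVEC and -0.77 in TIME, and between -1.55 and -1.89 in the AML lines. RSAD2 differed most in iHUVEC, by 5.70, with 0.0493 TPM untreated, 1.85 TPM with IFNg and 147 TPM with TNFa. Among the IFNg control genes, CIITA stood at 0.562, 39.4, 0.412 and 15.0 TPM in iHUVEC in the same order of treatments, near its untreated level with TNFa. In Kasumi-1 CIITA stood at 1.70, 21.9, 33.4 and 52.7 TPM, higher with TNFa than with IFNg. CIITA does not stand for all the IFNg control genes. By limma GBP4 (4.58 ± 0.83, adjusted p = 0.0178) and ETV7 (3.03 ± 0.64, adjusted p = 0.0405) rose with TNFa in the endothelial lines. The remaining control genes were not called there, where 0.784% of all genes rose.

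With TNFa added to IFNg most of these genes stood higher than with IFNg alone in 4 lines. By at least 1 log2 over the IFNg library, 38 of 52 were higher in Kasumi-1, 38 in THP-1, 42 in iHUVEC and 38 in TIME, against 14.9%, 5.13%, 4.91% and 5.55% of all genes. In NOMO-1 0 were higher and 14 lower by that size, where 0.997% of all genes were higher and 22.9% lower. Once mitochondrial genes were taken out, NOMO-1 had 2 members higher and 6 lower. In the fit of all lines 4 members rose, HERC5, HERC6, IFIH1 and LAMP3, where 2.25% of all genes did and 13.5% fell, and the median was 1.19 for the members and -0.17 for all genes. IFIH1 changed by 2.45 ± 0.58 (adjusted p = 0.0114) and LAMP3, a lysosomal membrane protein, by 3.01 ± 0.72 (0.012). No member kept its call in every fit without 1 line. The count was 18 without NOMO-1, 2 without THP-1 or iHUVEC, and 0 without TIME (IFIH1 then at adjusted p = 0.0682, LAMP3 at 0.0791). Scaling by the median of ratios gave 13. The share of all genes called in these fits is not given, so the shifts need not be particular to the members.

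The 4 largest changes of the combination over IFNg were those of MX2, RSAD2, LAMP3 and IFIT1. MX2, which blocks nuclear import of HIV capsids, stood at 1.11, 83.6, 22.3 and 327 TPM in Kasumi-1, 7.95, 9.36, 5.1 and 3.16 TPM in NOMO-1, and 3.08, 3.7, 3.14 and 53.6 TPM in THP-1. Endothelial values were 0.0537, 0.507, 75.7 and 133 TPM in iHUVEC and 0.0679, 2.3, 7.35 and 299.7 TPM in TIME. MX2 changed by 3.43 ± 1.15 (adjusted p = 0.0537), and without NOMO-1, in which it was lower with both cytokines than untreated, by 4.62 (adjusted p = 0.0125). RSAD2 was measured at 1.02, 199, 10.1 and 925 TPM in Kasumi-1, 0.288, 1.86, 0.073 and 1.49 TPM in NOMO-1, and 1.57, 3.63, 0.979 and 27.1 TPM in THP-1. For the endothelial pair it was at 0.0493, 1.85, 147 and 288 TPM in iHUVEC and 0.0324, 2.86, 1.56 and 175 TPM in TIME. RSAD2 changed by 3.36 ± 1.18 (adjusted p = 0.0626), and was called without NOMO-1 (adjusted p = 0.0402). LAMP3 stood at 0.534, 18.3, 1.62 and 245 TPM in Kasumi-1, 0.0808, 0.457, 0.858 and 1.82 TPM in NOMO-1, and 0.0311, 0.082, 0.0509 and 4.68 TPM in THP-1. Endothelial cells showed it at 5.28, 9.51, 57.2 and 137 TPM in iHUVEC and 4.53, 5.76, 18.4 and 134 TPM in TIME. In THP-1 LAMP3 passed 1 TPM in no library but the one with both cytokines. IFIT1, an RNA cap sensor, stood at 2.09, 212, 30.3 and 810.0 TPM in Kasumi-1, 0.0055, 0.661, 0.0047 and 0.0706 TPM in NOMO-1, and 0.104, 1.48, 0.23 and 20.2 TPM in THP-1. Among endothelial libraries it was at 4.3, 5.79, 259 and 255 TPM in iHUVEC and 0.144, 3.28, 10 and 143 TPM in TIME. IFIT1 changed by 2.94 ± 1.03 (adjusted p = 0.0623), was called without NOMO-1 (adjusted p = 0.0259), and in iHUVEC stood close together with TNFa alone and with both cytokines.

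**Figure D4:**
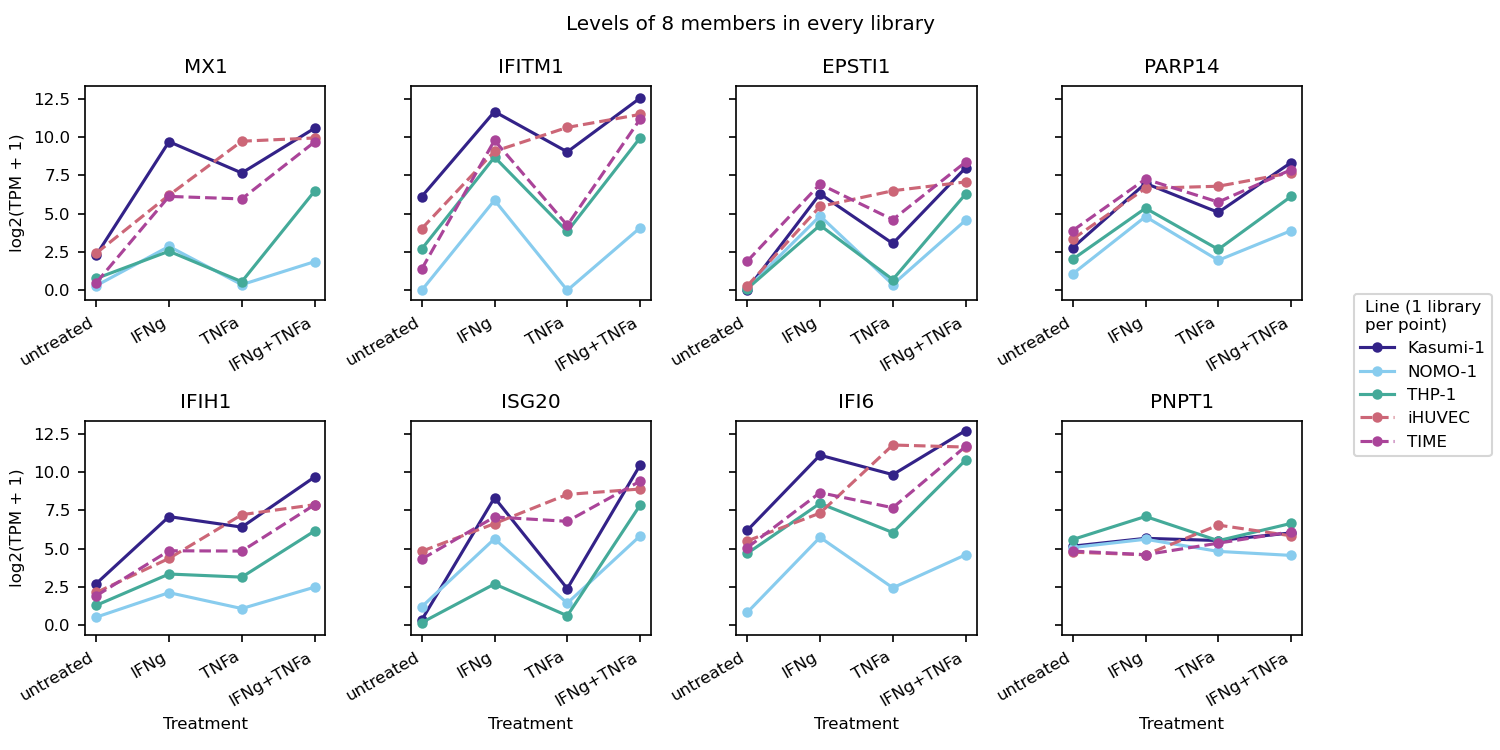
Level of 8 members in each library as log2(TPM + 1), by treatment, with 1 line per cell line (solid for AML, dashed for endothelial). MX1, IFITM1, EPSTI1, PARP14, IFIH1, ISG20 and IFI6 are highest with both cytokines in Kasumi-1, THP-1 and TIME, the iHUVEC line climbs at TNFa, and PNPT1 stays between 22.4 and 135 TPM.

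Responses of AML and endothelial lines were compared next. With both cytokines 46 members rose in the AML lines and 46 in the endothelial lines, where 7.33% and 4.18% of all genes did and 18.6% and 10.3% fell, and 42 were called in both. Those counts were 24 without Kasumi-1 and 28 without THP-1 in the AML lines, and 9 without iHUVEC and 6 without TIME in the endothelial lines. With IFNg 13 members rose in the AML lines (0.638% of all genes, with 0.00665% lower) and 3 in the endothelial lines, EPSTI1, IFITM1 and PARP14 (0.346% of all genes, with 0.0798% lower), and these 3 were also called in the AML lines. The AML count was 2 without Kasumi-1 or THP-1, 7 without NOMO-1 and 4 without iHUVEC or TIME, and the endothelial count was 0 without THP-1 or TIME. None of these differences between counts is a test of a difference in response, and the shares of all genes called without a line are not given.

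In the test of the difference itself, 0 of 52 members were called for any of the 3 treatments by limma. For TNFa 0.106% of all genes responded more in AML and 0.153% more in endothelial lines. An unadjusted p under 0.05 was reached by 8 of the 52 members and 687 of all 15043 genes. The mean TNFa change was smaller in the AML lines for 51 of 52 members, with a median difference of -1.96, against -0.05 for all genes. The single lines did not split by cell type. The median member change with TNFa was 2.41 in Kasumi-1, above the 1.53 in TIME. It was 4.07 in iHUVEC, 0.19 in THP-1 and 0 in NOMO-1. EPSTI1 had the smallest p, with -3.18 ± 1.09 (adjusted p = 0.667). For IFNg, 0% and 0.00665% of all genes differed upward and downward. Here 1 member had an unadjusted p under 0.05, as did 558 of the 15043 genes. For both cytokines 1.38% and 0.897% of all genes differed. An unadjusted p under 0.05 was reached by 2344 of the 15043 genes, a larger share than the 3 of 52 members. The 3 members were IFITM3 (2.68 ± 0.77, adjusted p = 0.0943), BST2 (-4.55 ± 1.60, adjusted p = 0.174) and MX2 (-4.26 ± 1.94, adjusted p = 0.311). With both cytokines 1 member was called without Kasumi-1 and 2 without NOMO-1, and the shares of all genes called in these fits are not given. A p above the threshold with 3 and 2 lines does not show that the responses were alike.

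Untreated levels were compared between the cell types, and the share of members called was no larger than that of all genes. Of the 47 members tested in the 5 untreated libraries, 3 were lower in AML, ISG20 (-4.0 ± 0.66, adjusted p = 0.011), OAS1 (-3.57 ± 0.71, adjusted p = 0.0229) and LAMP3 (-2.30 ± 0.46, adjusted p = 0.0234), where 7.47% of all genes were lower and 1.02% higher. The median was -1.38 for the members and -0.88 for all genes, and scaling by the median of ratios moves the latter to -0.04 and the former to -0.61. OAS1 was at 2.42, 0.416 and 1.22 TPM in untreated Kasumi-1, NOMO-1 and THP-1 and at 22.6 and 28 TPM in iHUVEC and TIME. Its groups do not overlap, nor do those of ISG20 and LAMP3 given above. With 3 and 2 libraries this adds no support to the calls. Under that scaling ISG20 and LAMP3 lost their call (adjusted p = 0.083 and 0.0552). Leaving out Kasumi-1 gave 11 calls, NOMO-1 6, iHUVEC 1, and THP-1 or TIME 0, and all 3 calls were lost without THP-1 (adjusted p from 0.0683 to 0.097). With 1 endothelial line left, that line is taken to vary as the AML lines do. How the share of all genes called moved without a line is not given.

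Signalling genes upstream of the list were examined beside it, and their part in the results was not tested. Of 16 genes of ISGF3 and JAK-STAT signalling, 7 rose with IFNg, 0 with TNFa and 13 with both cytokines in the fit of all lines, where 0.771%, 0.146% and 8.62% of all genes did. IRF1, which IFNg also induces, rose with TNFa in the endothelial lines by 2.48 ± 0.38 (adjusted p = 0.00571).

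Of 10 interferon genes examined, 1 passed the filter on low values. IFNB1, which encodes interferon beta, was at 2.94 TPM in iHUVEC with TNFa and 9.46 TPM with both cytokines, and at 31.1 TPM in Kasumi-1 with both. In the other 17 libraries it was at 0.525 TPM or less. IFNA1 and IFNL1 reached 29.8 and 30.1 TPM in Kasumi-1 with both cytokines and at most 0.716 TPM elsewhere. IFNG was listed at 0 in all 20 libraries. With TNFa alone IFNB1 was at 0.242 TPM in Kasumi-1 and 0.0887 TPM in TIME. These are RNA levels at 24 h, which do not show earlier transcripts or secreted protein. The part of these interferon transcripts in the results above was not tested.

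Genes of RNA and DNA sensing outside the list, which include adaptors and kinases beside sensors, were examined as well. Of 11, 6 rose and 1 fell with both cytokines, where 8.62% of all genes rose and 27.2% fell. The 6 were the sensors RIGI, TLR3, CGAS and IFI16 and the kinases TBK1 and IKBKE, and the adaptor MAVS fell by 0.53 (adjusted p = 0.0102). None rose with IFNg by limma, where 0.771% of all genes did, and IKBKE rose with TNFa (1.55 ± 0.27, adjusted p = 0.027), where 0.146% did. RIGI, the sensor of short double-stranded RNA, was at 8.46 TPM in untreated iHUVEC and 23.1, 229.8 and 364 TPM with IFNg, TNFa and both, and at 0.865, 71.3, 17.0 and 289.9 TPM in Kasumi-1. In NOMO-1 RIGI stayed between 0.733 and 1.65 TPM.

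Windows with and without the ISRE letters overlapped widely in response. The 27 members with the letters had a median change of 2.97 with IFNg, 1.77 with TNFa and 4.36 with both, and the 15 matched members without them had 2.51, 1.35 and 3.39. PNPT1, ADAR, TRIM21, TRIM25 and SP100, with changes of 0.75 to 1.67 with both cytokines, are among those without the letters, and so are SAMD9L, OAS1 and XAF1, which changed by 4.51, 4.98 and 4.74 with both cytokines. The absence of these letters says nothing of sites outside the window.

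Transcripts of single genes did not all follow the gene. Of 341 member transcripts tested, 246 rose with both cytokines, 12 with IFNg and 0 with TNFa, where 3.89%, 0.22% and 0.0409% of all 63614 transcripts rose. With both cytokines the count was 105 without Kasumi-1 and 101 without TIME, and the shares of all transcripts called in these fits are not given. Over IFNg alone, 6 member transcripts rose with both, where 0.497% of all did. By limma 108 member transcripts had an unadjusted p under 0.05 with TNFa, as did 3616 of all 63614. Among the 110 that held at least 10% of their gene's TPM on average, 98 rose and 2, ADAR-201 and TRIM21-202, had a change below 0.

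ADAR makes a long protein from an interferon-inducible promoter and a shorter one from constitutive promoters. The gene as a whole stood at 66.4, 149, 111 and 244 TPM in Kasumi-1, 7.12, 14, 5.01 and 9.22 TPM in NOMO-1, and 35, 83.6, 46.7 and 104 TPM in THP-1. The endothelial cells held it at 58.7, 101, 184 and 185 TPM in iHUVEC and 53.7, 99.3, 96.3 and 167 TPM in TIME. ADAR rose with both cytokines by 1.40 ± 0.25 (adjusted p = 0.000847). ADAR-202, with 1226 codons, has the length of the long form, and ADAR-201, with 931 codons, that of the short form. ADAR-202 stood at 16.2, 70.4, 41.2 and 129 TPM in Kasumi-1, 2.4, 5.4, 1.01 and 4.44 TPM in NOMO-1, and 2.81, 12.9, 4.68 and 17 TPM in THP-1. Endothelial levels were 11.3, 27.1, 82.6 and 75.4 TPM in iHUVEC and 12.8, 50.1, 44.2 and 74.1 TPM in TIME. ADAR-202 rose with both cytokines by 2.19 ± 0.38 (adjusted p = 0.00263), and each endothelial library with a cytokine lay above both untreated ones. ADAR-201 stood at 24, 16.9, 18.5 and 11.2 TPM in Kasumi-1, 0, 3, 0.228 and 0.625 TPM in NOMO-1, and 3, 2.22, 5.48 and 0.916 TPM in THP-1. Endothelial values were 21.8, 15.8, 30.7 and 30 TPM in iHUVEC and 20, 13.6, 19.4 and 17.8 TPM in TIME. ADAR-201 changed by -0.22 ± 0.36 (adjusted p = 0.729). Its share of ADAR was 36.2% untreated and 4.58% with both cytokines in Kasumi-1, 8.57% and 0.885% in THP-1, 37.1% and 16.2% in iHUVEC, and 37.2% and 10.7% in TIME. In NOMO-1 it was the other way round, with 0% and 6.78%. A further transcript of 931 codons, ADAR-219, which begins close to ADAR-201, rose by 2.53 ± 0.45 (adjusted p = 0.00298), so the transcripts with the length of the short form did not move alike. In THP-1 ADAR-215, annotated as subject to nonsense-mediated decay, held 55.7 to 69% of ADAR, and in NOMO-1 18.8 to 48.8%, against at most 0.444% in Kasumi-1 and the endothelial lines.

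**Figure D5:**
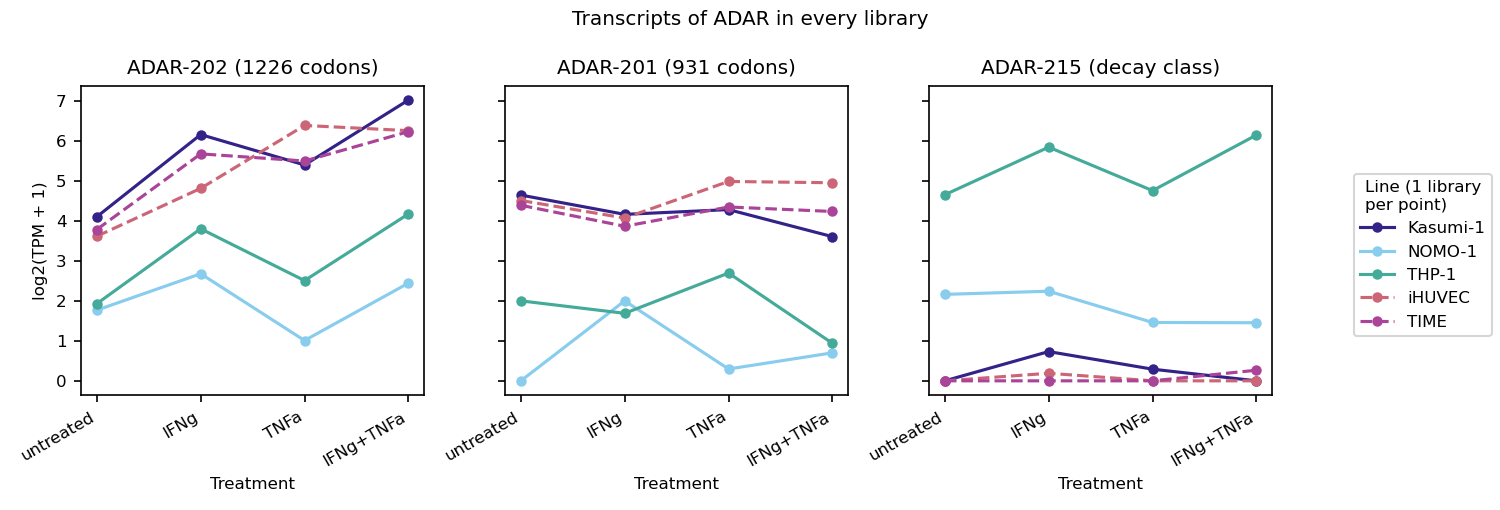
Level of 3 ADAR transcripts in each library as log2(TPM + 1), by treatment, with 1 line per cell line (solid for AML, dashed for endothelial). ADAR-202 is higher with both cytokines than untreated in all 5 lines, ADAR-201 is lower in Kasumi-1, THP-1 and TIME and higher in NOMO-1 and iHUVEC, and ADAR-215 is highest in THP-1, followed by NOMO-1.

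TRIM21, an antibody receptor in the cytosol, and HERC5 had transcripts that moved apart as well. The gene TRIM21 stood at 17.8, 85.6, 32.3 and 83.4 TPM in Kasumi-1, 10.1, 13.2, 3.37 and 6.14 TPM in NOMO-1, and 24.7, 51.3, 22.6 and 52.8 TPM in THP-1. For the endothelial pair it was at 18.7, 70.1, 103 and 93.5 TPM in iHUVEC and 27.7, 103, 48 and 97.3 TPM in TIME. TRIM21 was expressed in every library, and rose by 1.33 ± 0.38 with both cytokines (adjusted p = 0.0134). TRIM21-201, with 87.8% of TRIM21 on average, rose by 1.51 ± 0.32 (adjusted p = 0.00753), and TRIM21-202, with 12.2%, changed by -0.38 ± 0.30 (adjusted p = 0.432). HERC5-201, with 80.6%, rose by 2.60 ± 0.58 (adjusted p = 0.0102), and HERC5-203, with 18.5%, changed by 0.32 ± 0.31 (adjusted p = 0.541). Shares of transcripts are estimates that depend on the annotation, and depth is unknown.

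The members also share positions. By GENCODE v29 on GRCh38, 26 of the 52 lie within 100000 bases of another member: among them are the IFIT genes on chromosome 10, OAS1, OAS2 and OAS3 on chromosome 12, MX1 and MX2 on chromosome 21, HERC5 and HERC6 on chromosome 4, and RSAD2 and CMPK2 on chromosome 2. Neighbours did not have the same level: in untreated NOMO-1 MX2 stood at 7.95 TPM and MX1 at 0.234 TPM, and in TIME with both cytokines HERC6 was at 82.2 TPM and HERC5 at 4.28 TPM.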

How the data were processed

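RNA sequencing libraries (QIAGEN kit, Illumina NovaSeq, per the labels' protocols) came from 5 cell lines under 4 conditions, 1 library each. The authors deposited TPM values for 35168 genes and 170068 transcripts. Salmon 1.2.0, DESeq2 1.28.1 and GRCh38.p13 are named in the submitters' processing notes, with no annotation release. The columns marked x2 were read as both cytokines. TPM keeps no depth, so no counting interval was computed, and a large change in abundant genes moves all others.

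Ensembl IDs were paired with symbols through a gene-name table (35051 IDs) and GENCODE v29 (110). The members and lists were chosen with earlier results of these data known. log2(TPM + 1) was tested with limma 3.58.1 (R 4.3.3, moderated, with a trend) over genes with at least 1 TPM in at least 2 libraries and Benjamini-Hochberg adjustment over all of them, with line and treatment as terms. Changes within a cell type came from 1 fit with treatment within each type, and untreated levels from the 5 untreated libraries. The line pairs the libraries because they are the same cells. Libraries of 1 line also deviated together from the means of their cell type (r from 0.652 to 0.904), where iHUVEC and TIME, alone in their type, mirror each other and give the same values. Members given in every library were the leader of each role group, those called with TNFa, those called nowhere, the 4 largest changes of both cytokines over IFNg and up to 3 with transcripts that moved apart. The fitting code was tested on simulated data. Alternatives were a pseudocount of 0.1, no filter, at least 5 TPM, median-of-ratios scaling, removal of mitochondrial genes, no trend, no line term, each cell type alone and leaving out each line. Some results are not reported here.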

Additional observations from a re-analysis of the deposited data

Results flagged for a closer look

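PNPT1 was the 1 result set apart by a difference between groups. With IFNg its change was above 0 in all 3 AML lines and below 0 in both endothelial lines. The mean was 0.85 log2 in AML and -0.20 in endothelial lines, a difference of 1.05. In limma's test of that difference the standard error was 0.55 and the adjusted p was 1, so it did not pass.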

How the results depend on the processing

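The line is the replicate, and there are 3 and 2 per cell type, so a single line can decide a count. Depth is unknown. Of the single-gene values recomputed, 494 kept their side of the threshold, 104 lost it, 31 gained it and 0 changed sign. Counts below are members called. The shares of all genes called in the same fits are not given, so a shift in a count need not be particular to the members. Without the replicate block (no term for the line), the counts over all lines were 1 with IFNg, 9 with both cytokines and 0 for both over IFNg. They were 0 with IFNg and 2 with both in AML lines, 0 with IFNg, 0 with TNFa and 2 with both in endothelial lines, and 7 for transcripts. With no filter on low values they were 10 with IFNg and 2 for both over IFNg over all lines, 3 with IFNg in AML, 0 with TNFa in endothelial lines and 0 untreated. A pseudocount of 0.1 gave 3 with TNFa over all lines, 22 with IFNg in AML, 5 with TNFa in endothelial lines and 1 untreated. Median-of-ratios scaling gave 2 with TNFa and 13 for both over IFNg over all lines, 24 with IFNg in AML and 5 with TNFa in endothelial lines. Removing mitochondrial genes gave 2, 20 and 5 for TNFa over all lines, IFNg in AML and TNFa in endothelial lines. A filter of 5 TPM gave 5 untreated. Endothelial libraries alone gave 1 with IFNg and 4 with TNFa. The causes of these shifts were not tested. Leaving out 1 line gave 4 to 17 with IFNg, 0 to 1 with TNFa, 48 to 51 with both and 0 to 18 for both over IFNg over all lines. In AML lines it gave 2 to 7 with IFNg and 24 to 50 with both. In endothelial lines it gave 0 to 2 with IFNg, 0 to 9 with TNFa and 6 to 49 with both. It gave 0 to 2 for the AML minus endothelial response to both, 0 to 11 untreated and 101 to 260 for transcripts. No paired analysis was possible for the untreated levels because each line belongs to 1 cell type only.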
